A study of Rattus norvegicus with 4 samples.

Results

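The genes that store and release triglyceride in heart muscle cells were followed in neonatal rat cardiomyocytes given a mimic of miR-25, miR-93 or miR-106b. The list named 10 genes, the lipase genes Pnpla2 and Lipe, the Pnpla2 cofactor and inhibitor genes Abhd5 and G0s2, the vascular lipase gene Lpl, the droplet coat genes Plin2, Plin3 and Plin5, and the triglyceride synthesis genes Dgat1 and Dgat2. They were picked by name and with their values in these same libraries known, so their changes are given as a description without a test. Of the 10 genes, 9 were found by symbol among the 15731 genes of the deposited values, and Plin5 was not analysed here. The cells were wild type ventricular cardiomyocytes of Wistar rats at postnatal day 1 (day 0 in one protocol of the labels), kept in medium with serum and transfected with lipofectamine 1 day after seeding. The control culture received cel-miR-67, a worm miRNA, by the same transfection, and the others received hsa-miR-25-3p, hsa-miR-106b-5p and hsa-miR-93-5p. RNA was taken 72 h later, and the labels give the mimic dose as 25 nM in one protocol and as 25 mM in another. Each mimic gave 1 library, so no difference has a replicate check, and differences between cultures cannot be told apart from those between mimics. The mimics carry human miRNA names and were given to rat cells. A pre-plating step removed cells that attach early, after which the cultures held mostly cardiomyocytes.

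Adult heart muscle burns mainly fatty acids, and it keeps a small, fast turning store of them as triglyceride in lipid droplets. Lipolysis removes the fatty acids in order, with adipose triglyceride lipase (the product of Pnpla2) acting on triglyceride, hormone-sensitive lipase (Lipe) on diglyceride and monoglyceride lipase (Mgll) on the last ester. Abhd5 protein, also known as CGI-58, activates adipose triglyceride lipase, and the small protein G0s2 binds that lipase and inhibits it. Perilipins coat the droplet and control access of the lipases, lipoprotein lipase (Lpl) frees fatty acids from circulating lipoproteins, and the DGAT enzymes carry out the last step of triglyceride synthesis.

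The mature miRNAs are shown because their seeds, which guide the choice of target RNAs, set the mimics apart. They are the rat sequences of RefSeq on the GRCr8 assembly, written 5′ to 3′ with the seed, bases 2 to 8, in capitals.
rno-miR-106b-5p: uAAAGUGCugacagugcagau
rno-miR-93-5p: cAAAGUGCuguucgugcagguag
rno-miR-25-3p: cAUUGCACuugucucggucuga
All of them lie on the minus strand of chromosome 12, miR-106b at chr12:22157103-22157123, miR-93 at chr12:22156894-22156916 and miR-25 at chr12:22156652-22156673. The seeds of miR-106b and miR-93 were identical over 7 bases, and a perfect match in a target RNA would read GCACUUU. The seed of miR-25 was a different one, with the match GUGCAAU. The transcripts of the lipid genes were not searched for these matches.

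Levels are RPKM, the reads on a gene scaled by the authors to its exon length and to the size of the library, so that levels can be compared between genes. Whole reads were recovered from the steps of the RPKM values and numbered 15175185 on listed genes after cel-miR-67 and between 16460108 and 18797234 with the other mimics. The 95% intervals given below are exact Poisson intervals for levels and exact Clopper-Pearson intervals for ratios, and they cover counting error only. A change is the log2 ratio of RPKM, mimic over cel-miR-67, and a gene was called higher or lower past 1.3-fold if its RPKM was above 1.0 in both libraries. The verbs rose and fell are used for such calls alone. Reads on listed genes made up 66.9% of the library size after cel-miR-67 and 60.4% to 63.2% with the other mimics. When RPKM was rescaled to those reads, log2 ratios moved up by 0.08 after miR-106b, 0.15 after miR-93 and 0.15 after miR-25. Higher genes then made up 64.7%, 72.3% and 64.8% of all calls in the same order, against 48.2%, 49.2% and 46.1% as deposited.

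Of the 9 genes, 8 passed the RPKM limit in every comparison and Lipe passed in none. After miR-106b 5 of the 8 fell (Pnpla2, Abhd5, G0s2, Lpl and Plin3) and 0 rose, where 12.7% of all tested genes were called lower and 11.9% higher. After miR-93 4 fell (Pnpla2, Abhd5, G0s2 and Lpl) and 1 rose (Dgat2), where the shares of all tested genes were 15.6% and 15.1%. After miR-25 4 fell (G0s2, Lpl, Plin2 and Dgat2) and 1 rose (Abhd5), where 22.6% of all tested genes were called lower and 19.3% higher. Since the genes were chosen with these values in view, nothing is read from the difference between their shares and those of all genes. The median log2 ratio of the 8 genes was -0.55 after miR-106b, -0.37 after miR-93 and -0.39 after miR-25, and that of all tested genes was between -0.01 and 0.00. The miR-25 median was -0.15 at an RPKM limit of 2.0, which drops Dgat2, and -0.59 without a limit, which adds Lipe. After rescaling to the reads on listed genes it was -0.24, and the miR-93 median was -0.22. Past 2-fold 0 of the 8 were called after miR-106b or miR-93, and G0s2 and Lpl were lower after miR-25. The shares of all tested genes past 2-fold were 1.23% higher and 1.33% lower after miR-106b, 1.7% and 2.56% after miR-93, and 3.21% and 5.01% after miR-25. G0s2 and Lpl were lower past 1.3-fold with every mimic. The comparisons share the 1 control library, which alone can make them alike.

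**Figure D1:**
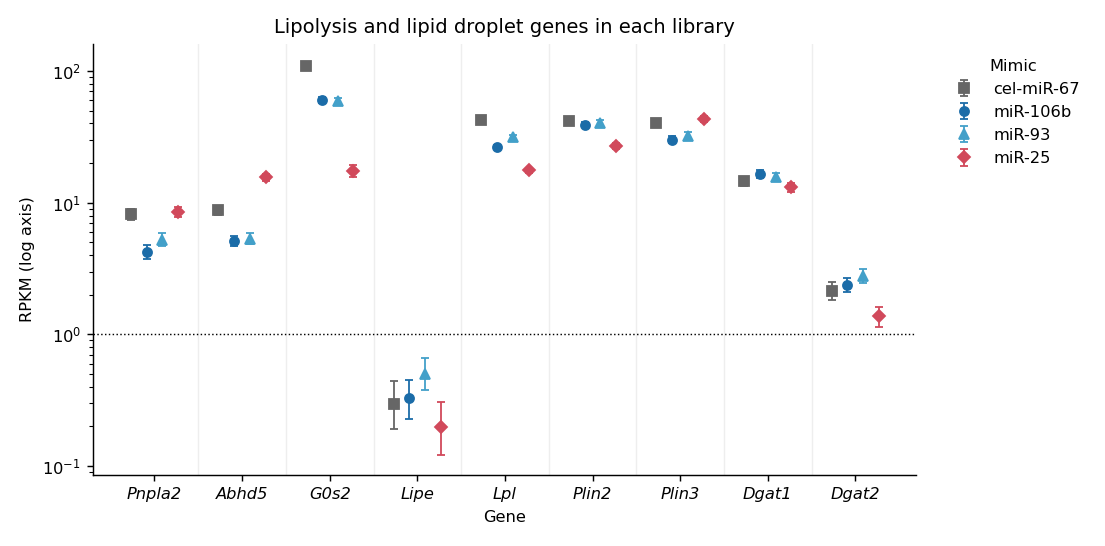
RPKM of the 9 lipid genes (log axis) in the libraries of cel-miR-67, miR-106b, miR-93 and miR-25, 1 point per library, with 95% exact Poisson intervals that cover counting error only and a dotted line at the RPKM limit of 1.0. G0s2 stood at 109 RPKM after cel-miR-67 and at 17.4 after miR-25, while Abhd5 was highest after miR-25, at 15.6.

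G0s2 (ENSRNOG00000006019), the gene of the lipase inhibitor, was the most abundant of the 9 transcripts in the control culture and fell with each mimic. Its level was 109 RPKM after cel-miR-67 (104 to 114, from 1800 reads), 60.7 after miR-106b (57.5 to 64.1, 1317 reads), 59.0 after miR-93 (55.6 to 62.4, 1174 reads) and 17.4 after miR-25 (15.6 to 19.4, 346 reads). The control library was the highest, the miR-106b and miR-93 libraries lay close together below it, and the miR-25 library was far below all of them. The log2 ratio was -0.84 after miR-106b (-0.95 to -0.74), -0.89 after miR-93 (-0.99 to -0.78) and -2.64 after miR-25 (-2.81 to -2.48). The last value is a 6.25-fold lower level (5.57 to 7.04), and among the 11198 genes tested after miR-25 4 had a lower ratio. Genes that ended under the RPKM limit are not in that ranking. Mgll is such a gene, at 0.66 RPKM and a log2 ratio of -2.67 after miR-25. After miR-106b 258 of the 11296 tested genes had a lower ratio than G0s2, and after miR-93 402 of 11280 did. In the control culture 97.1% of listed genes had a lower RPKM than G0s2, and after miR-25 80.8% did. In a whole culture, fewer cells that carry a transcript and less of it per cell cannot be told apart.

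Pnpla2 (ENSRNOG00000047551), the gene of the lipase that G0s2 inhibits, was lower after miR-106b and miR-93 and not after miR-25. It stood at 8.19 RPKM after cel-miR-67 (419 reads), 4.23 after miR-106b (284 reads), 5.24 after miR-93 (323 reads) and 8.53 after miR-25 (524 reads). The log2 ratio was -0.95 after miR-106b (-1.18 to -0.73) and -0.64 after miR-93 (-0.86 to -0.43). After miR-25 it was 0.06 (-0.13 to 0.25), and no difference was detectable at this depth.

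Abhd5 (ENSRNOG00000000221), the gene of the lipase's activator, followed Pnpla2 down after miR-106b and miR-93 and rose after miR-25. Its level was 8.78 RPKM after cel-miR-67 (604 reads), 5.12 after miR-106b (462 reads), 5.32 after miR-93 (441 reads) and 15.6 after miR-25 (1286 reads). The log2 ratio was -0.78 after miR-106b (-0.96 to -0.60), -0.72 after miR-93 (-0.90 to -0.54) and 0.82 after miR-25 (0.68 to 0.97). It was the only gene of the 8 called higher after miR-25, at 1.77-fold (1.61 to 1.95), and 587 of the 11198 tested genes had a higher ratio.

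**Figure D2:**
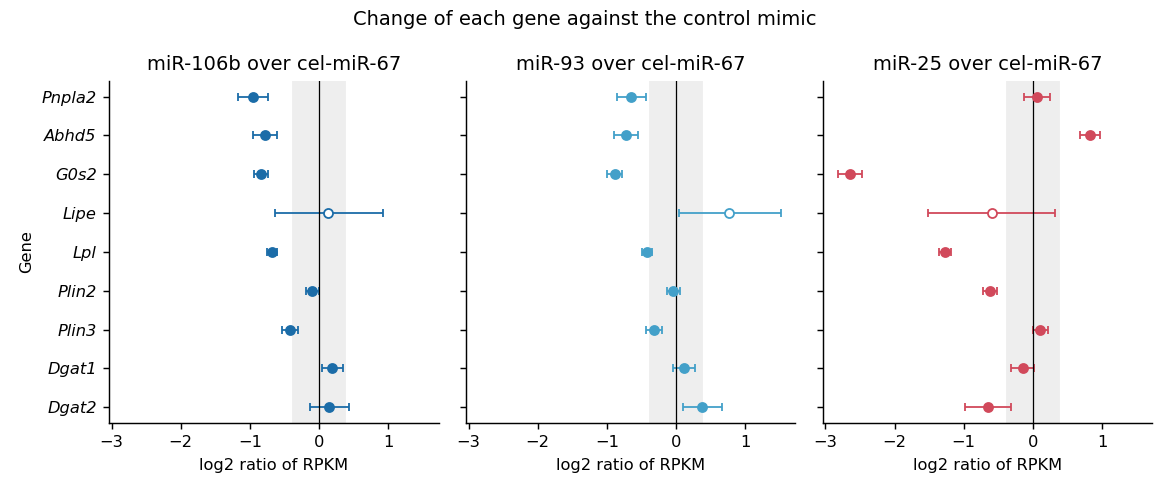
log2 ratio of RPKM, mimic over cel-miR-67, for the 9 lipid genes, with 95% exact intervals from the reads of the libraries compared (counting error only); the grey band marks changes within 1.3-fold and open points are below the RPKM limit. G0s2 and Lpl lie left of the band with every mimic, and Abhd5 lies left of it after miR-106b and miR-93 and right of it after miR-25.

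Within a library the transcripts of inhibitor and lipase can be set against each other, which does not depend on library size. G0s2 exceeded Pnpla2 in RPKM by 13.3-fold after cel-miR-67 (11.9 to 14.8), 14.3-fold after miR-106b (12.6 to 16.4) and 11.2-fold after miR-93 (9.93 to 12.8), and by 2.04-fold after miR-25 (1.78 to 2.34). G0s2 exceeded the activator gene Abhd5 by 12.4-fold (11.3 to 13.6), 11.9-fold (10.7 to 13.2) and 11.1-fold (9.92 to 12.4) in the first 3 of these libraries. After miR-25 that ratio was 1.12, and its interval of 0.99 to 1.26 includes 1. The first 3 libraries have overlapping intervals for G0s2 over Abhd5, and the miR-25 library stands apart in both ratios. Abhd5 and Pnpla2 were near equal after cel-miR-67, at a ratio of 1.07 (0.94 to 1.22), and Abhd5 was 1.82-fold higher than Pnpla2 after miR-25 (1.65 to 2.02). These are ratios of RNA and give no amount of protein.

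**Figure D3:**
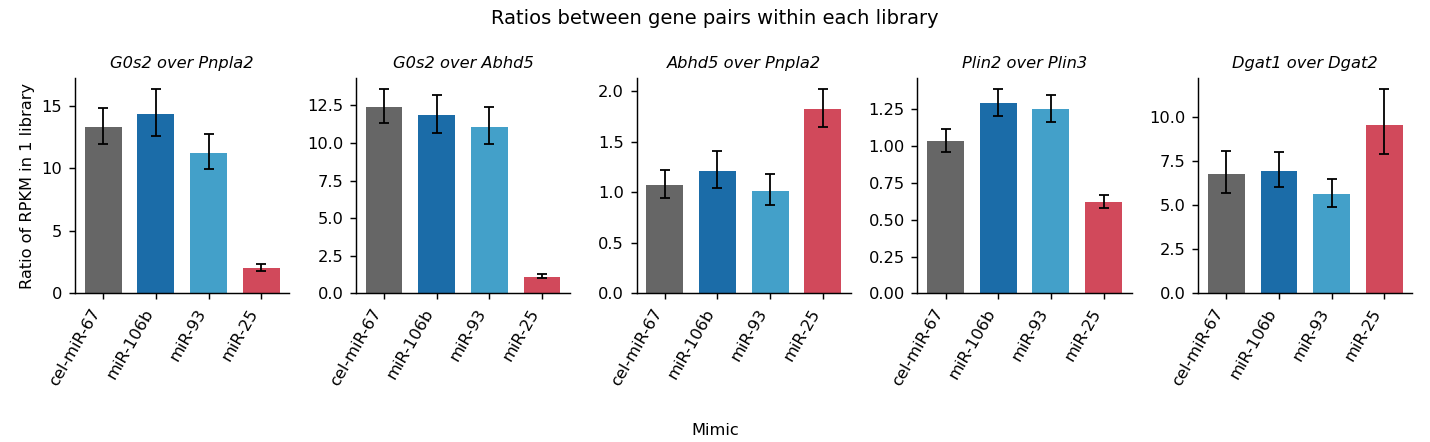
Ratio of RPKM between gene pairs within each library, 1 bar per library with 95% exact intervals (counting error only), each panel on its own linear axis from 0. G0s2 over Pnpla2 stood between 11.2 and 14.3 in 3 libraries and at 2.04 after miR-25, and Plin2 over Plin3 was below 1 after miR-25 alone.

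Lipe (ENSRNOG00000020546), the gene of hormone-sensitive lipase, was scarce in all 4 cultures. It had 0.30 RPKM after cel-miR-67 (25 reads), 0.33 after miR-106b (36 reads), 0.50 after miR-93 (51 reads) and 0.20 after miR-25 (20 reads). All of these lie under the limit of 1.0, so Lipe was not called in any comparison. The log2 ratio after miR-93 was 0.76 (0.04 to 1.51), and the intervals after miR-106b (-0.64 to 0.93) and miR-25 (-1.51 to 0.32) include 0. Mgll, the gene of the lipase for the last step, fell after miR-106b, with a log2 ratio of -0.59 (-0.92 to -0.27), and was at -0.29 after miR-93 (-0.61 to 0.02). Its level was 4.18 RPKM after cel-miR-67 (169 reads), 2.77 after miR-106b, 3.41 after miR-93 and 0.66 after miR-25 (32 reads). The miR-25 value is under the limit and was not called, and it lies 6.35-fold below the control (4.33 to 9.58).

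Lpl (ENSRNOG00000012181), whose protein releases fatty acids from lipoproteins at the vessel wall, fell with every mimic. The level was 42.7 RPKM after cel-miR-67 (3554 reads), 26.7 after miR-106b (2916 reads), 31.9 after miR-93 (3194 reads) and 17.7 after miR-25 (1768 reads). The control library was again the highest and the miR-25 library the lowest, and the Poisson intervals of the 4 libraries do not overlap. The log2 ratio was -0.68 after miR-106b (-0.75 to -0.61), -0.42 after miR-93 (-0.49 to -0.35) and -1.27 after miR-25 (-1.36 to -1.19). With RPKM rescaled to the reads on listed genes the ratio after miR-93 was -0.28, within 1.3-fold.

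The genes that work beside Lpl and take up fatty acids were read from a list of 22, of which 19 were in the deposited values and 14 above the RPKM limit. After miR-106b 3 rose and 4 fell (11.9% and 12.7% of all tested genes), after miR-93 4 rose and 7 fell (15.1% and 15.6%), and after miR-25 3 rose and 5 fell (19.3% and 22.6%), with medians of -0.09, -0.36 and -0.29. Vldlr, a receptor that takes up triglyceride-rich lipoproteins, was at 51.3 RPKM after cel-miR-67, 16.4 after miR-106b, 13.3 after miR-93 and 22.5 after miR-25. Its log2 ratios were -1.64, -1.95 and -1.19, which placed it among the largest falls of the list with all mimics.

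Cd36, the main fatty acid translocase of heart muscle, fell with each mimic, from 35.8 RPKM to 23.1, 20.6 and 25.3 after miR-106b, miR-93 and miR-25. Its log2 ratios were -0.63 (-0.68 to -0.59), -0.80 (-0.84 to -0.75) and -0.50 (-0.55 to -0.46). The shift from rescaling to the reads on listed genes takes the miR-25 value of Cd36 within 1.3-fold. Fabp5, a carrier of fatty acids in the cytosol, fell after miR-25 from 34.4 to 15.0 RPKM, a log2 ratio of -1.20. The transporter genes Slc27a1 and Slc27a3 moved the other way, with log2 ratios of 0.82 and 0.90 after miR-106b, 1.18 and 0.90 after miR-93, and 1.07 and 1.03 after miR-25. Both were scarce, at 1.36 and 1.94 RPKM in the control culture. Angptl4, an inhibitor of lipoprotein lipase, had 5 to 12 reads per library and 0.21 RPKM at most, and Gpihbp1, its anchor on capillaries, was not analysed here.

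The droplet coat genes Plin2 and Plin3 were near equal in the control culture and parted with the mimics. Plin2 (ENSRNOG00000007060), a perilipin that is stable only on droplets, was at 41.7 RPKM after cel-miR-67 (1758 reads), 39.0 after miR-106b (2160 reads), 40.5 after miR-93 (2059 reads) and 27 after miR-25 (1369 reads). It fell after miR-25 alone, at a log2 ratio of -0.63 (-0.73 to -0.52), while the values were -0.09 after miR-106b (-0.19 to 0.00) and -0.04 after miR-93 (-0.13 to 0.05). The miR-93 value turned to 0.11 after rescaling to the reads on listed genes.

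Plin3 (ENSRNOG00000048834), a perilipin that moves between cytosol and nascent droplets, stood at 40.3 RPKM after cel-miR-67 (1204 reads), 30.2 after miR-106b (1183 reads), 32.4 after miR-93 (1165 reads) and 43.5 after miR-25 (1560 reads). It fell after miR-106b, at -0.42 (-0.53 to -0.30), and was within 1.3-fold after miR-93, at -0.32 (-0.43 to -0.20), and after miR-25, at 0.11 (0.00 to 0.22). The miR-106b value was -0.33, within 1.3-fold, after rescaling to the reads on listed genes. Plin2 over Plin3 was 1.03 after cel-miR-67 (0.96 to 1.11), 1.29 after miR-106b (1.20 to 1.39), 1.25 after miR-93 (1.16 to 1.35) and 0.62 after miR-25 (0.58 to 0.67).

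Other droplet proteins and neutral lipases came from a list of 20, with 17 in the deposited values. After miR-106b 2 of 14 tested rose and 3 fell (11.9% and 12.7% of all tested genes), after miR-93 4 of 14 rose and 2 fell (15.1% and 15.6%), and after miR-25 3 of 13 rose and 4 fell (19.3% and 22.6%), and the medians were -0.09, -0.11 and 0.03. Fitm1, a muscle protein that passes triglyceride into droplets, was at 3.59 RPKM after cel-miR-67, 7.94 after miR-106b, 13.1 after miR-93 and 2.36 after miR-25. It rose by 1.14 after miR-106b and 1.86 after miR-93 on the log2 scale and fell by 0.60 after miR-25. Fitm2, its relative, rose by 0.59 after miR-93 and fell after miR-25 from 3.71 to 2.57 RPKM.

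Cidea, which drives droplet fusion, fell from 19.5 RPKM to 12 after miR-106b and 14.7 after miR-93, and stood at 15.3 after miR-25, a log2 ratio of -0.35 and within 1.3-fold. Bscl2, the gene of seipin, which shapes new droplets, fell by 0.44 after miR-106b and 0.59 after miR-93, and was at 0.33 after miR-25, within 1.3-fold. Hsd17b11, a droplet-bound dehydrogenase, rose by 0.47 after miR-106b, 0.40 after miR-93 and 0.60 after miR-25. Pnpla6, a lysophospholipase of the same protein family as Pnpla2, rose after miR-25 from 1.40 to 3.76 RPKM. Lipa, the lysosomal acid lipase gene, fell after miR-25 from 11.8 to 6.58 RPKM, and Aup1, a droplet-bound factor in protein degradation, from 28.7 to 16.9. Plin4 stayed between 0.15 and 0.42 RPKM, and Plin1 and Cidec were not analysed here.

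**Figure D4:**
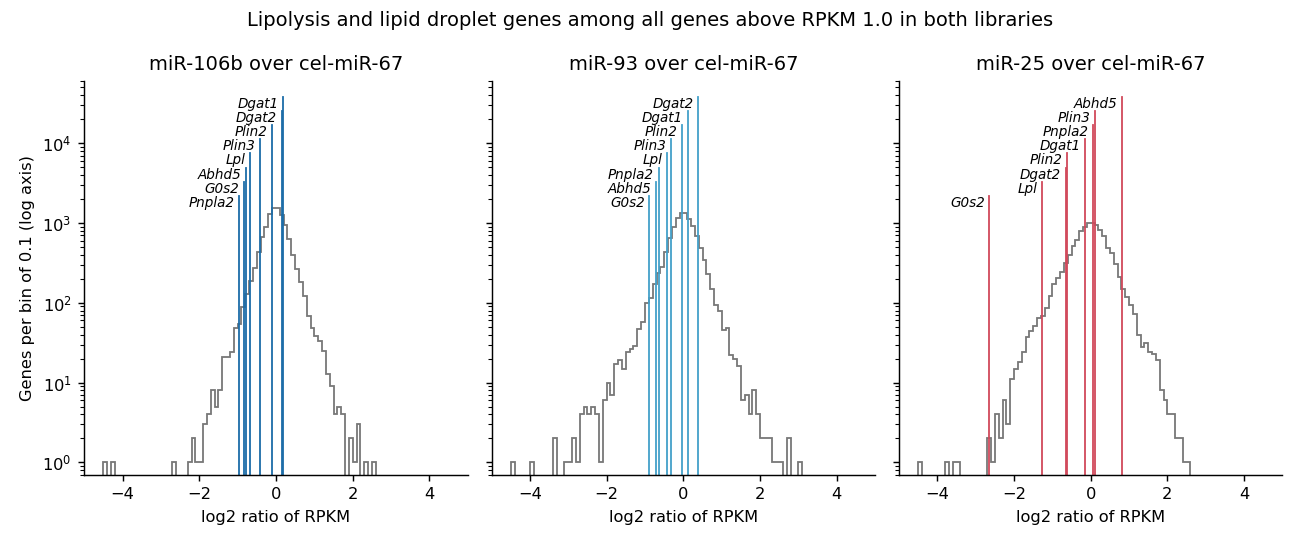
Distribution of log2 ratios of RPKM over all genes above RPKM 1.0 in both libraries (grey outline, genes per bin of 0.1 on a log axis), with a labelled line at each of the 8 lipid genes tested (line heights only separate the names). G0s2 lies in the left tail after miR-25, at -2.64, and nearer the bulk after miR-106b and miR-93.

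Dgat1 and Dgat2 encode unrelated enzymes for the same last step of triglyceride synthesis. Dgat1 (ENSRNOG00000028711) varied least of the 9 genes, at 14.5 RPKM after cel-miR-67 (576 reads), 16.6 after miR-106b (864 reads), 15.7 after miR-93 (751 reads) and 13.1 after miR-25 (624 reads). Its log2 ratios were 0.19 after miR-106b (0.04 to 0.35), 0.11 after miR-93 (-0.04 to 0.27) and -0.15 after miR-25 (-0.32 to 0.02), all within 1.3-fold. Dgat2 (ENSRNOG00000016573) stood at 2.15 RPKM after cel-miR-67 (171 reads), 2.39 after miR-106b (249 reads), 2.80 after miR-93 (268 reads) and 1.37 after miR-25 (131 reads). It fell after miR-25, at -0.65 (-0.99 to -0.31), and rose after miR-93, at 0.38 (0.10 to 0.66), and was at 0.15 after miR-106b (-0.14 to 0.44). The rise after miR-93 only just passed the limit of 1.3-fold, and with a pseudocount of 1 RPKM it was 0.27, within 1.3-fold. Dgat1 over Dgat2 was 6.76 after cel-miR-67 (5.69 to 8.07), 6.97 after miR-106b (6.04 to 8.05), 5.63 after miR-93 (4.89 to 6.49) and 9.56 after miR-25 (7.91 to 11.6).

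The steps before DGAT were read from 19 genes, all in the deposited values. After miR-106b 2 of 16 tested rose and 3 fell (11.9% and 12.7% of all tested genes), after miR-93 3 of 15 rose and 2 fell (15.1% and 15.6%), and after miR-25 2 of 15 rose and 1 fell (19.3% and 22.6%), with medians of 0.00, 0.03 and 0.17. Gpd1, which makes glycerol 3-phosphate, the backbone of triglyceride, was at 4.90 RPKM after cel-miR-67, 4.92 after miR-106b, 7.63 after miR-93 and 2.03 after miR-25. Gk, glycerol kinase, fell from 4.13 RPKM to 3.08 after miR-106b and 1.76 after miR-93, log2 ratios of -0.42 and -1.23, and was at 4.90 after miR-25, within 1.3-fold.

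The phosphatidate phosphatase gene Lpin2 rose by 0.58 after miR-106b and 0.59 after miR-93, and its relative Lpin3 fell after miR-106b from 2.23 to 1.22 RPKM, and was under the limit after miR-93, at 0.81. Of the acyltransferase genes, Agpat2 rose by 0.51 after miR-106b, and Agpat4 and Gpat3 by 0.40 and 0.39 after miR-25. Plpp3 fell by 0.68 after miR-106b and Plpp2 by 0.40 after miR-93, both genes of lipid phosphate phosphatases. The interval of the Plpp2 log2 ratio, -0.82 to 0.02, includes 0.

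The levels of the 9 genes kept part of their order across the cultures, with changes of place for G0s2, Lpl, Plin3 and Abhd5 among others. After cel-miR-67 the order was G0s2, then Lpl, Plin2 and Plin3, whose neighbours had overlapping intervals, then Dgat1, then Abhd5 and Pnpla2, which overlapped, then Dgat2 and Lipe. After miR-106b and after miR-93 it was G0s2, Plin2, Plin3, Lpl, Dgat1, Abhd5, Pnpla2, Dgat2 and Lipe, where Abhd5 overlapped with Pnpla2 in both and Plin3 with Lpl after miR-93. After miR-25 Plin3 came first, followed by Plin2, and Lpl, G0s2 and Abhd5 came next with overlapping neighbours. Dgat1, Pnpla2, Dgat2 and Lipe followed, and Dgat1 did not overlap with Abhd5. Across the 4 libraries the highest level over the lowest was 6.25-fold for G0s2, 3.04-fold for Abhd5, 2.54-fold for the scarce Lipe and 2.42-fold for Lpl, and it was lowest for Dgat1, at 1.27-fold.

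The mimics can also be compared with each other, which leaves the control library out. Between miR-93 and miR-106b, which share a seed, 0 of the 8 genes passed 1.3-fold, where 7.3% of 11391 tested genes were called higher after miR-93 and 8.21% lower. The largest of these log2 ratios was 0.31 for Pnpla2 (0.07 to 0.54), followed by 0.25 for Lpl (0.18 to 0.33), and that of G0s2 was -0.04 (-0.16 to 0.07). Between miR-25 and miR-106b, 3 genes were higher after miR-25 (Pnpla2, Abhd5 and Plin3) and 4 lower (G0s2, Lpl, Plin2 and Dgat2), where 22.1% of 11183 tested genes were higher and 23% lower. The log2 ratio was 1.01 for Pnpla2 (0.80 to 1.22), 1.60 for Abhd5 (1.45 to 1.76) and -1.80 for G0s2 (-1.98 to -1.63). Between miR-25 and miR-93 the same 3 genes were higher and the same 4 lower, and the background was 22.1% higher and 23% lower of 11198 tested genes. The log2 ratio there was 0.70 for Pnpla2 (0.50 to 0.91), 1.55 for Abhd5 (1.39 to 1.71) and -1.76 for G0s2 (-1.94 to -1.59).

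Lipolysis is switched on by adrenergic receptors through cyclic AMP and protein kinase A. Of 16 genes on that route 14 were in the deposited values. After miR-106b 0 of 13 tested rose and 1 fell (11.9% and 12.7% of all tested genes), after miR-93 3 of 13 rose and 0 fell (15.1% and 15.6%), and after miR-25 1 of 12 rose and 4 fell (19.3% and 22.6%). The medians were 0.10, 0.06 and -0.06. Pde3b, a phosphodiesterase that breaks down cyclic AMP, fell by 0.44 after miR-106b. The beta-1 receptor gene Adrb1 rose after miR-93 from 2.99 to 5.70 RPKM, and the adenylyl cyclase gene Adcy5 from 9.77 to 14.8. Adcy5 fell after miR-25, to 7.01 RPKM. After miR-25 the catalytic subunit genes of protein kinase A parted, as Prkaca fell from 76.5 to 52.4 RPKM and Prkacb rose from 35.6 to 47.3. Pde4b, another phosphodiesterase gene, fell after miR-25 from 7.49 to 4.69 RPKM.

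Transcription factors of lipid storage numbered 14 on the list, 13 in the deposited values and 7 above the RPKM limit. After miR-106b 1 rose and 1 fell (11.9% and 12.7% of all tested genes), after miR-93 4 rose and 1 fell (15.1% and 15.6%), and after miR-25 1 rose and 3 fell (19.3% and 22.6%), with medians of 0.04, 0.49 and -0.20. Ppara, the fatty acid receptor that induces many of these genes, was at 2.59 RPKM after cel-miR-67 (151 reads), 1.79 after miR-106b (137 reads), 2.58 after miR-93 (181 reads) and 1.11 after miR-25 (78 reads). It fell after miR-106b, at -0.53 (-0.88 to -0.19), and after miR-25, at -1.22 (-1.63 to -0.81). Its coactivator gene Ppargc1a rose with each mimic, from 6.27 RPKM to 8.67 after miR-106b, 9.26 after miR-93 and 10.4 after miR-25. Klf15, a factor of muscle lipid use, was at 1.93 RPKM in the control and rose by 0.49 after miR-93 and fell by 0.71 after miR-25, on the log2 scale. Rxra, the partner receptor of Ppara, rose by 0.69 and Hif1a, the hypoxia factor, by 0.62 after miR-93, and Srebf1, a driver of lipid synthesis, fell by 0.45.

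Genes known to respond to Ppara and its relatives were 17 in number, 15 in the deposited values and 12 above the limit. After miR-106b 2 rose and 3 fell (11.9% and 12.7% of all tested genes), after miR-93 3 rose and 3 fell (15.1% and 15.6%), and after miR-25 3 rose and 3 fell (19.3% and 22.6%), and the medians were -0.01, 0.02 and -0.07. Acadvl, the dehydrogenase gene for very long chain fatty acids, fell with each mimic, from 55.2 RPKM to 33.8, 36.8 and 37.3. Acadl, for long chains, fell from 33.9 RPKM to 23.2 after miR-106b, 17.5 after miR-93 and 23.5 after miR-25. Ucp2, a mitochondrial carrier gene, rose from 16.4 RPKM to 24.2, 25.6 and 30.5 after miR-106b, miR-93 and miR-25. The thioesterase gene Acot2 rose by 0.56 after miR-106b, 0.62 after miR-93 and 0.95 after miR-25. Cpt1a, which admits fatty acids to mitochondria, rose by 0.93 after miR-93. Txnip, a regulator of glucose uptake and redox state, fell from 93.7 RPKM to 68.5 after miR-106b, 64.7 after miR-93 and 52.3 after miR-25.

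**Figure D5:**
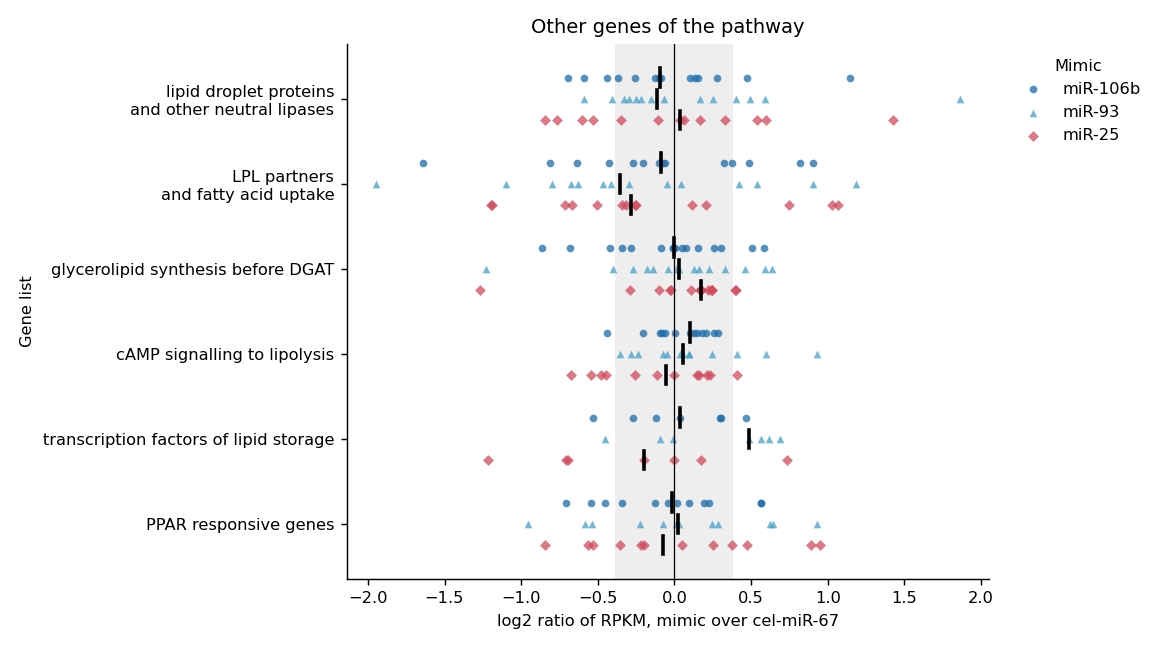
log2 ratio of RPKM, mimic over cel-miR-67, for the genes of 6 lists above RPKM 1.0 in both libraries, 1 point per gene and mimic, with a black bar at the median; the grey band marks changes within 1.3-fold. Vldlr is the leftmost point after miR-93, at -1.95, Fitm1 the rightmost, at 1.86, and the list medians lie inside the band apart from the transcription factors after miR-93, at 0.49.

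Marker genes of the cell types that such cultures can hold moved with the mimics too. All 8 cardiomyocyte markers in the deposited values, of 9 named, were above RPKM 1.0 in each library, as labelled, and their summed level was 19547 RPKM after cel-miR-67, 17612 after miR-106b, 13037 after miR-93 and 11605 after miR-25. The 8 fibroblast markers, all detected, summed to 821, 637, 743 and 317 RPKM in the same order. The 7 smooth muscle and pericyte markers summed to 772, 710, 605 and 2079 RPKM, which is 2.69-fold higher after miR-25 than after cel-miR-67, in the library where G0s2 and Lpl were lowest and Abhd5 was highest. Tagln alone was at 478 RPKM after cel-miR-67 and 1306 after miR-25, most of either sum. Single markers did not all follow their sums. All tested genes were called 11.9% higher and 12.7% lower after miR-106b, 15.1% and 15.6% after miR-93, and 19.3% and 22.6% after miR-25. Of the 7 smooth muscle and pericyte markers 6 rose after miR-25 and Cspg4 fell by 0.82. After miR-106b 1 of 7 rose and 2 fell, and after miR-93 0 of 6 tested rose and 3 fell. Of the 8 fibroblast markers 7 fell after miR-25 and Lum rose by 0.87. After miR-106b 5 of the 8 fell and after miR-93 4 fell, and 0 rose after either. Of the 8 cardiomyocyte markers, 1 rose and 3 fell after miR-106b, 1 rose and 4 fell after miR-93, and all 8 fell after miR-25. The 1 that rose was Tnni3, by 0.63 and 0.49. After miR-25 Tnni3 fell from 351 to 15.9 RPKM, a log2 ratio of -4.47. Tnnt2 and Actc1 fell least after miR-25, at -0.48 and -0.51. The shift from rescaling to the reads on listed genes takes both within 1.3-fold. The 6 endothelial markers listed of 7 summed to 8.34, 6.24, 6.62 and 5.68 RPKM in the order of the sums above. Of the 3 endothelial markers tested, Kdr rose by 0.45 after miR-106b, 0.79 after miR-93 and 0.86 after miR-25. Of the others, 2 fell after miR-106b, 1 after miR-93 and 2 after miR-25. The 8 macrophage markers summed to 13.7, 14.7, 17.1 and 7.43 RPKM in that order. Of those tested, 1 of 5 rose and 0 fell after miR-106b, and 2 of 5 rose and 0 fell after miR-93. After miR-25 0 of 4 rose and 3 fell. These calls include Cd68 after miR-93 (-0.07 to 0.98) and C1qb after miR-25 (-1.26 to 0.21), whose intervals include 0. The interval of the pericyte marker Rgs5, called lower after miR-106b, also includes 0 (-1.13 to 0.20). Of 9 adipocyte markers 3 were listed, and Cidea, which is also a droplet gene above, was the only one over RPKM 1.0, with Fabp4 at 0.92 at most and Cfd at 0.43 at most and at 0 after miR-25. The part of these shifts in the changes of the lipid genes was not tested.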

How the data were processed

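RNA of 4 neonatal rat cardiomyocyte cultures, 1 library per mimic, was sequenced as single reads. As the methods state, the authors trimmed the reads with Cutadapt, aligned them to the Rnor 6.0 genome with STAR (version 2.7 in the submitters' processing notes), rounded gene counts and deposited RPKM values made with the rpkm function of edgeR. The read counter is not given in the sources used here. The table of the whole series was equal to the 4 tables of single samples. Whole reads were recovered for all 15731 genes from the ratios of RPKM between libraries, with library sizes between 22674410 and 29749467 reads, and 654 genes were multiplied by a common factor so that their length came out whole within 0.01 bases. The methods of the study state far fewer reads per sample than these library sizes, and the intervals rest on the recovered reads. The recovery was tested on data simulated from the recovered reads, lengths and library sizes, so that test could not check them independently. Groups were taken from the sample titles. With 1 library per group no test was run.

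Changes were ratios of deposited RPKM without a pseudocount, called past 1.3-fold where RPKM was above 1.0 in both libraries. The results text of the study gives these cutoffs and its methods an RPKM cutoff of 2.0. The members, the 6 pathway lists, the 6 marker lists and the rule for named genes were chosen with earlier results of these data known. Named genes were the members, the 2 largest rises and the 2 largest falls past 1.3-fold of each pathway list with each mimic, and Plin1, Plin4, Cidec, Mgll, Angptl4, Gpihbp1, Cd36 and Ppara. A gene that the rule named in the list of Lpl partners is not reported here. A gene named for 1 mimic is also given for the other mimics where it passed 1.3-fold. The markers Cspg4, Tagln, Lum, Tnni3, Tnnt2, Actc1, Kdr, Cd68, C1qb and Rgs5 were chosen after their values were seen. Of 107 pathway genes 96 were in the deposited values, 6 of them under older symbols matched through the RefSeq gene table of GRCr8, which was also the build of the miRNA sequences. No coordinates of genes are given, since that build is not the one of the alignment. Tables were handled in pandas 2.3.3 and intervals in scipy 1.17.1 with numpy 2.4.6, under Python 3.11.15, and plots were drawn in matplotlib 3.10.9.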

Additional observations from a re-analysis of the deposited data

How the results depend on the processing

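With 1 library per mimic, leaving out a replicate was not possible, and counting error was the only error that could be measured. No paired analysis was possible because each group has 1 library. Of 135 log2 ratios of the 9 lipid genes under 5 alternatives (a pseudocount of 0.1 or of 1, centring at the median of tested genes, a mean trimmed by 30% at each end, and scaling to the reads on listed genes), 126 stayed within the counting interval of the reported ratio and 9 moved beyond it. All 9 came from scaling to the reads on listed genes, which was chosen after seeing the data, and no called gene changed direction. With all alternatives the log2 ratio of G0s2 after miR-25 lay between -2.64 and -2.50 and that of Abhd5 between 0.76 and 0.97. The pathway and marker lists were not recounted with the alternatives. Calls near 1.3-fold in those lists can be lost or gained with scaling to the reads on listed genes.

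A fold-change limit of 2 left 0 lipid genes lower after miR-106b and after miR-93 and 2 after miR-25, and 0 higher after miR-93 and miR-25. The 1 higher gene after miR-93, Dgat2, became 0 with a limit of 1.5 and with either pseudocount, and 2 without the RPKM limit, which adds Lipe. The median of the lipid genes after miR-25 was -0.15 at an RPKM limit of 2.0, which drops Dgat2, and -0.59 without a limit, and the median after miR-93 was -0.22 after scaling to the reads on listed genes. Over all genes, dropping the RPKM limit gave 2785 higher and 2935 lower genes after miR-106b, 3249 and 3080 after miR-93, and 3712 and 4032 after miR-25. A limit of 1.5-fold gave 588 and 647, 781 and 942, and 1189 and 1538, and a limit of 2-fold gave 139 and 150, 192 and 289, and 360 and 561 in the same order. Scaling to the reads on listed genes gave 2836 higher and 1089 lower genes after miR-93, and 3284 higher and 1782 lower after miR-25.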
